A study of Homo sapiens with 18 samples.

Results

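A group of 9 receptor genes was measured in every library, namely RET and its co-receptor genes GFRA1, GFRA2 and GFRA3, the related kinases ALK and LTK, and the neurotrophin receptor genes NTRK2, NTRK3 and NGFR. The genes were taken by gene symbol, with earlier results of these data known, and make up 9 of the 57905 Ensembl genes counted. The cells were BE(2)-m17, an established human neuroblastoma line. Every culture carried an APP transgene on the hygromycin vector pSBbi-Hyg-APP. A further vector separated the lines: pSBbi-Pur-ABCC1(WT), which encodes codon-optimized wild-type ABCC1, in the ABCC1-overexpressing cells, and the empty pSBbi-Pur in the control cells, labeled Puro. ABCC1 is a membrane transporter that exports drugs and conjugated metabolites. The vectors integrate by transposition, so their insertion sites are not controlled, and each line is a transfected population of a single tumor line. Each of 3 experiments compared 3 ABCC1 libraries with 3 Puro libraries, 18 in all. Cells were plated at 14000000 per well and lysed on day 4. The labels number the experiments only; the second is taken here as the thawed frozen cells and the third as a fresh transfection, the order in which the study describes its repeats. The comparison asks which transcripts differ in level when ABCC1 is overexpressed.

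RET, ALK, LTK and the TRK proteins are receptor tyrosine kinases that signal through RAS and ERK, PI3K and phospholipase C. RET does not bind its ligands alone. GDNF, neurturin and artemin bind mainly GFRA1, GFRA2 and GFRA3, respectively, and the complex then engages RET. ALK and LTK respond to the small secreted proteins ALKAL1 and ALKAL2, and activating ALK mutations are the best known kinase lesion of neuroblastoma. NTRK2 (TRKB) is the receptor for BDNF, NTRK3 (TRKC) that for neurotrophin-3, and NGFR (p75NTR) binds all neurotrophins with low affinity. High TRKB and its ligand are known from aggressive neuroblastoma, and RET is part of the sympathetic, or adrenergic, program of these tumors.

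The libraries held between 8866994 and 57937653 assigned read pairs, most in the first experiment and fewest in the third. Exogenous ABCC1 had at least 51035 counts in each ABCC1 library and at most 15 in each Puro library. Of 14 adrenergic neuroblastoma markers, 14, 13 and 13 lay over 2 times the background described next in the first, second and the third experiment. Their summed level per kilobase was 4112 to 4637 in ABCC1 against 4794 to 5161 in Puro in the first experiment. It was 3402 to 3798 against 2654 to 3330 in the second and 3514 to 3951 against 3139 to 4704 in the third. CHGA and MYCN made up most of it, and in the second MYCN had 1422 in Puro and 2036 in ABCC1. At an adjusted p of at most 0.05 (edgeR), 3 of 14 were higher and 8 lower in the first, against 17.9% and 19.7% of all genes. The second had 0, against 1.7%, and the third 1 higher and 2 lower, against 2.03% and 0.767%. The part of this sum in the results was not tested. Of 8 mesenchymal markers, 8, 5 and 3 lay over 2 times the background. Their summed level was 66.1 to 68.6 CPM per kilobase in ABCC1 against 73.4 to 83.0 in Puro in the first experiment, without overlap. It was 79.3 to 89.8 against 74.4 to 109 in the second and 71.7 to 79.2 against 74.6 to 98.0 in the third. TWIST1 made up most of this sum, with means of 66.7 in Puro and 55.0 in ABCC1 in the first experiment. The markers did not move together there. At the same limit 3 of 7 tested were higher and 3 lower, against 17.9% and 19.7% of all genes. The part of this sum in the results was not tested either. Of 7 Schwann cell markers, 5, 1 and 0 lay over 2 times the background. They summed to at most 1.88 CPM per kilobase in the first experiment, where FOXD3 had no count and SOX10 at most 1, to 2.74 to 4.97 in ABCC1 against 4.37 to 6.74 in Puro in the second and to 10.5 to 15.1 against 10.8 to 14.5 in the third. Of the 4 immune markers, 1, 0 and 0 passed it, and of 2 endothelial markers 1 passed it in each experiment. The immune sum was 0.369 to 1.68 CPM per kilobase in ABCC1 against 1.65 to 2.44 in Puro in the second experiment and 4.03 to 4.48 against 6.82 to 7.20 in the third, and the endothelial sum 0.722 to 1.5 against 1.87 to 3.21 and 4.52 to 5.34 against 5.54 to 6.89.

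Background reads bear on every low receptor gene. Levels are in CPM (counts per 1e6 of a TMM-adjusted library size), divided by kilobases of exon where genes are compared with each other. Olfactory receptor genes, which a neuroblastoma line is not known to use, served as the measure of background. In Puro cells 361 of them averaged 0.00136 CPM per kilobase in the first experiment, but 0.573 ± 0.0845 (SD, n = 3) in the second and 1.57 ± 0.097 in the third. These genes were chosen by a mean of at most 1 count in the first experiment, so their low level there is set by the choice. Over all 372 genes of the family matched by symbol, without that limit, the Puro means were 0.00486, 0.576 and 1.57 CPM per kilobase. In both repeats the ABCC1 libraries lay below the Puro libraries, at 0.144 to 0.423 against 0.486 to 0.655 in the second experiment and 1.13 to 1.41 against 1.46 to 1.65 in the third. ABCC1 replicate 1 of the second experiment stood apart, with the lowest background of its experiment, 0.144. The log2FC of RET, NTRK2 and NTRK3 are therefore given with and without it. All correlations with the background include this library and were not computed without it.

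RET was by far the most abundant of these genes. In the Puro libraries of the first experiment it stood at 162 ± 2.54 CPM per kilobase (SD, n = 3), and only 166 genes had a higher level. GFRA2 came next at 32 ± 1.43, followed by GFRA3 at 6.67 ± 0.472, ALK at 4.68 ± 0.27 and NGFR at 1.84 ± 0.108 CPM per kilobase. GFRA1 at 0.622 ± 0.0473 and NTRK2 at 0.448 ± 0.04 were lower still. NTRK3 at 0.0774 ± 0.0094 and LTK at 0.0647 ± 0.0096 overlapped each other, with 17 to 30 and 6 to 10 counts per library. All other neighbors in this order kept separate ranges, and all 9 genes were above the olfactory receptor level in every Puro library.

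In the repeat experiments RET and GFRA2 again had the highest level per kilobase. RET was at 31 ± 1.77 in the second and 64.6 ± 15.2 CPM per kilobase in the third experiment, and GFRA2 at 8.32 ± 0.566 and 11.4 ± 2.59. ALK came next in both repeats, at 5.23 ± 0.209 and 8.65 ± 0.358 CPM per kilobase. GFRA3 followed, at 4.04 ± 0.492 and 7.68 ± 1.6, and in the third experiment the ranges of ALK and GFRA3 overlapped. The other 5 genes lay close to the background. NGFR, LTK and NTRK3 were at 1.39, 1.30 and 1.19 CPM per kilobase in the second experiment, and their ranges overlapped. GFRA1 at 0.851 CPM per kilobase overlapped NTRK3, and NTRK2 at 0.651 lay below the other genes. There the background equaled 41.2%, 44.1% and 48% of these levels, 67.4% of the level of GFRA1 and 88.1% of that of NTRK2. LTK at 3.47 and NTRK3 at 3.08 CPM per kilobase overlapped in the third experiment, as did NGFR at 2.71, GFRA1 at 2.31 and NTRK2 at 1.58 with their neighbors, whereas NTRK3 and NGFR kept apart. There the background equaled 45.3% of the level of LTK, 51.1% for NTRK3, 58.1% for NGFR, 68% for GFRA1 and 99.3% for NTRK2. NTRK2 was thus not separable from background in the third experiment, and was above it in every Puro library of the other two. RET and GFRA2 stood 41.1 and 7.28 times above background in the third experiment, and ALK and GFRA3 5.50 and 4.89 times.

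**Figure D1:**
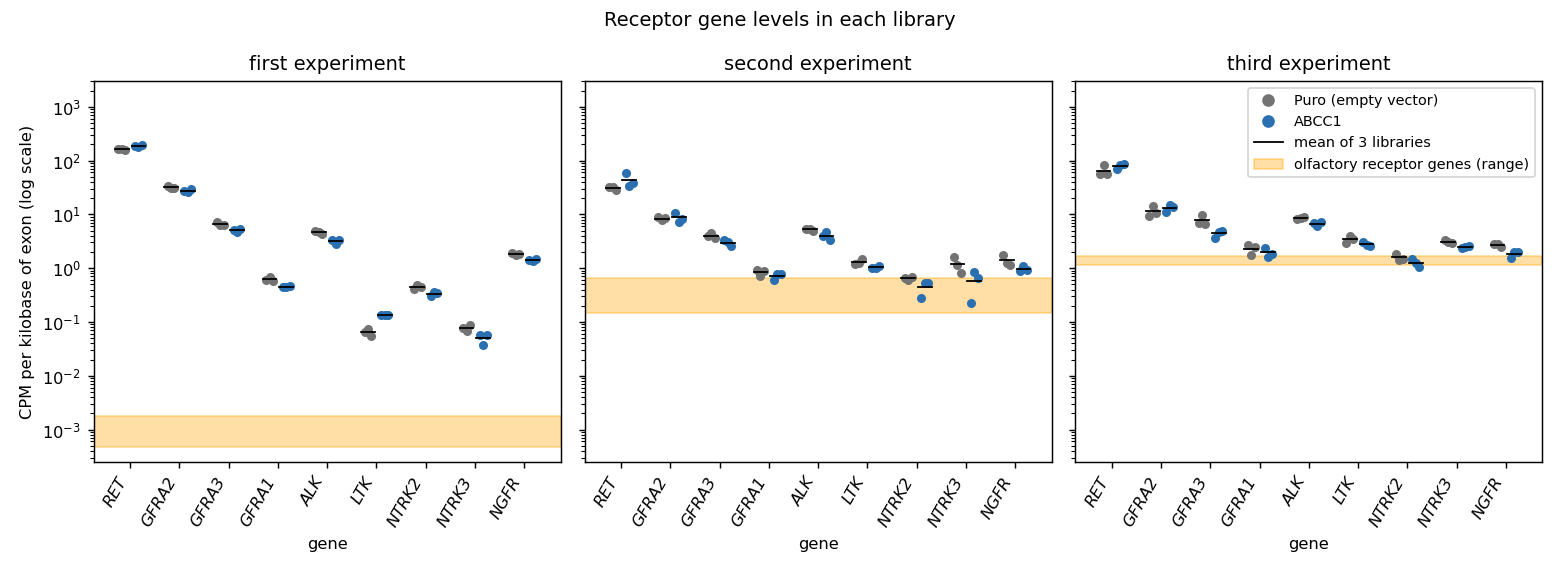
Level of each receptor gene in each library, as CPM per kilobase of exon on a log axis, with 1 panel per experiment. Gray points are Puro libraries, blue points ABCC1 libraries, black lines the means of 3, and the orange band is the range of the olfactory receptor level over 6 libraries. RET is the highest gene in every panel, and the band reaches the points of NTRK2 in the second and the third panels.

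On the GRCh37 build used by the files, RET (ENSG00000165731) spans chr10:43572475-43625799 on the plus strand and ALK (ENSG00000171094) chr2:29415640-30144432 on the minus strand. GFRA1 lies at chr10:117816444-118032979, GFRA3 at chr5:137588068-137610360, LTK at chr15:41795836-41806085 and NTRK3 at chr15:88418230-88799999, all on the minus strand. The position of GFRA2 is not given here. NTRK2 lies at chr9:87283466-87638505 and NGFR at chr17:47572655-47592379, both on the plus strand. NGFR shares 202 bp of exon, 4.87% of its length, with NGFR-AS1 on the opposite strand. Reads were counted without regard to strand, so these 2 transcripts cannot be told apart there. No other of the 9 genes shared exon sequence with another gene.

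The stretches just upstream of RET and ALK are shown because these kinase genes differed in opposite directions between the lines. Each is the 250 bases before the first transcription start that the RefSeq promoter table (GRCh38.p14) lists for the gene, 5′ to 3′ on the gene's strand, at chr10:43076819-43077068 (plus strand) and chr2:29921587-29921836 (minus strand). Capitals mark the GC box letters GGGCGG or, for the opposite strand, CCGCCC.
RET: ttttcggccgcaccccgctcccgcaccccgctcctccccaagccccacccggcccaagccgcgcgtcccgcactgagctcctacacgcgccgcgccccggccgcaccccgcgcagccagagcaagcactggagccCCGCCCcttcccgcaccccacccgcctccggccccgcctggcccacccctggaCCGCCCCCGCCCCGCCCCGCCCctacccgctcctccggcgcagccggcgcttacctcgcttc
ALK: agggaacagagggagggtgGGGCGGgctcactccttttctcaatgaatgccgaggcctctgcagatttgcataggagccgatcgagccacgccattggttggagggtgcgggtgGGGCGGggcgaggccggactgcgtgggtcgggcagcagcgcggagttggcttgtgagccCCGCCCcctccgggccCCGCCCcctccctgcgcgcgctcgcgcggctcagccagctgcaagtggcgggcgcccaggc
RET held 5 such matches, 4 of them touching or overlapping in 1 run, and ALK held 4, set apart from each other. The RET window was 79.6% G and C with 33 CpG sites, and the ALK window 71.6% with 24, where the median of 35116 such windows was 58.0% and 11. A GC box was found in 42.6% of all windows. The NTRK3 window had 2 matches, those of NTRK2 and GFRA3 1 each and those of LTK and GFRA1 0. None of these 7 windows held CACGTG, the E-box bound by MYC proteins, or TATAAA on either strand, which were present in 6.34% and 10.7% of all windows. A match is a run of letters and no evidence of binding. NGFR was not matched, and GFRA2 was not looked up.

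In the first experiment, ALK, NTRK2, NGFR and all 3 GFRA genes fell in ABCC1-overexpressing cells, and RET and LTK rose. In bulk RNA, fewer cells with a transcript and less of it per cell cannot be told apart. Calls rest on the quasi-likelihood test in edgeR, with a Benjamini-Hochberg adjusted p of 0.05 as the limit. Thus 8 of 9 receptor genes were called, 2 higher and 6 lower, where 37.6% of all 16995 genes tested were called, 17.9% higher and 19.7% lower. The 3 ABCC1 libraries did not overlap the 3 Puro libraries for any of the 9 genes, a separation seen in 50.4% of all genes tested, with 2 higher and 7 lower against 24.7% and 25.7%. The median log2FC of the 9 was −0.39, against 0.0074 over all genes. When the first experiment was taken from the fit of all 18 libraries, which changed the spread, the scaling and the genes tested together, 0 of the 9 genes were called, and the number over all genes went from 6382 to 1528. All 9 point estimates kept their direction there. RET had a log2FC of 0.30, LTK 1.15, ALK −0.46 and GFRA2 −0.12, and the median of all genes shifted by 0.10.

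In the second experiment edgeR called 0 of the 9 genes, where 1.7% of 34091 genes were called, 1.25% as higher and 0.458% as lower. At an unadjusted p of at most 0.05 there were 4 of 9, against 21.2% of all genes. In the first and the third experiments this limit was met by 9 of 9 and 5 of 9, against 46.6% and 15.2%. DESeq2 called 1 of the 9, RET, and 2727 genes in all, against 581 with edgeR. In the third experiment 1 of the 9 was called, GFRA3, which was lower, where 2.8% of 36509 genes were called, 2.03% as higher and 0.767% as lower. The point estimates were lower with ABCC1 for 7 of the 9 genes in each experiment, but not for the same 7. The higher ones were RET and LTK in the first experiment and RET and GFRA2 in both repeats. The median of the 9 was −0.38 in the second and −0.32 in the third experiment, against medians of −0.19 and −0.091 over all genes tested. Groups did not overlap for 6 genes in the second experiment, 1 higher and 5 lower, where this held for 29.8% of all genes, 13.5% higher and 16.4% lower. In the third it held for 4 genes, 0 higher and 4 lower, and for 19.5% of all genes, 8.59% higher and 10.9% lower. For 3 libraries against 3, an exact two-sided permutation test cannot give a p below 0.1.

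The common effect, the mean of the 3 within-experiment differences in a fit of all 18 libraries, was called for 6 genes. ALK, NTRK2, NTRK3, NGFR and GFRA3 were lower and RET was higher, where 12.9% of 46225 genes were called, 9.38% higher and 3.55% lower. LTK, GFRA1 and GFRA2 did not pass. This fit used 1 spread per gene for all experiments. Fitted within each experiment, the common coefficient of variation was 5.67%, 35.3% and 19.7%, so its standard errors do not measure the spread of any single experiment. The second experiment, taken as thawed frozen cells, is not shown to be a separate transfection. The differences between experiments were called for 0 of the 9 genes with edgeR, with 1 of 9 at an unadjusted p of at most 0.05 against 9.04% of all genes, and an adjusted call in 1.19% of all genes. When the log2 background level of each library, with a slope for each experiment, was added to this fit, 1 of the 9 genes was called in the common effect, GFRA3, and 1482 genes in all in place of 5979. This alternative was chosen after seeing the data. In both repeats the background separated all ABCC1 from all Puro libraries, so there the line and the background cannot be told apart.

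**Figure D2:**
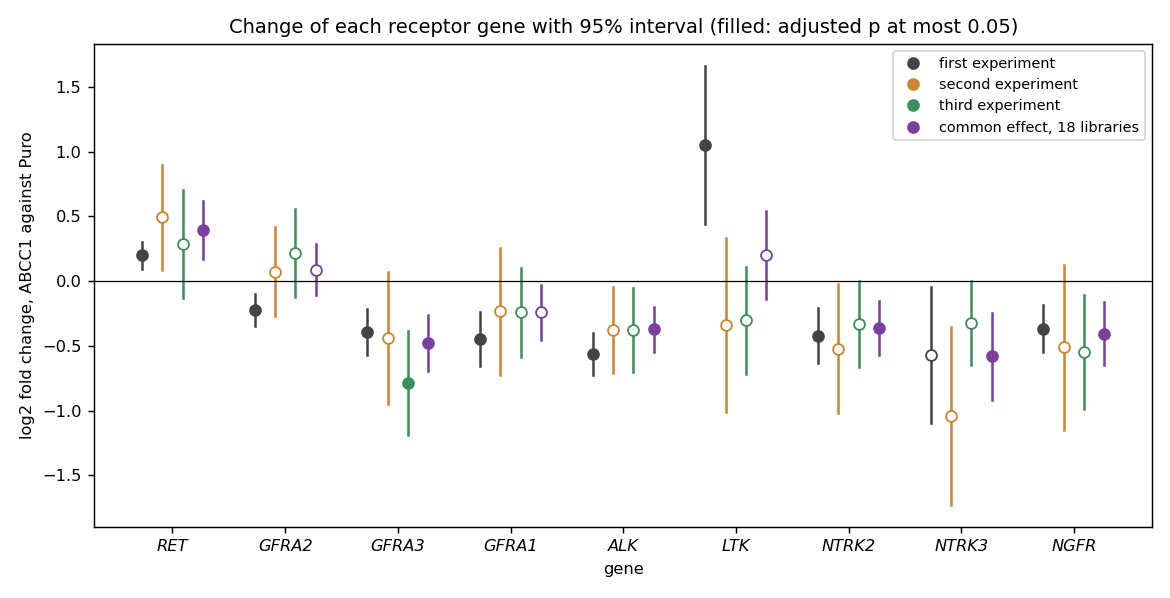
Log2FC of ABCC1 against Puro for each receptor gene in each experiment and in the common effect of 18 libraries, with 95% intervals. Filled points have an adjusted p of at most 0.05: 8 in the first experiment, 0 in the second, 1 in the third and 6 in the common effect.

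RET, the signaling kinase of the GDNF family, was higher with ABCC1 in the first experiment and in the common effect. In the first experiment it measured 1094, 1084 and 1061 CPM in the Puro libraries and 1218, 1189 and 1310 CPM in the ABCC1 libraries. All 3 ABCC1 values lay above all Puro values, on 29522 to 75977 counts per library. The log2FC was 0.20 ± 0.05 (SE; adjusted p = 0.00783, edgeR), a 1.15-fold level. The Puro libraries of the second experiment had 212, 214 and 193 CPM and the ABCC1 libraries 387, 229 and 254 CPM. The groups did not overlap, and the highest value was that of ABCC1 replicate 1, the library with the least background. The log2FC was 0.49 ± 0.20 (adjusted p = 0.161) and 0.24 (adjusted p = 0.641) without that library. In the third experiment the values were 377, 547 and 367 CPM in Puro and 460, 553 and 563 CPM in ABCC1, so Puro replicate 2 lay within the ABCC1 range. The log2FC there was 0.29 ± 0.21 (adjusted p = 0.555), and leaving out that Puro library gave 0.51 (adjusted p = 0.0178).

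The common log2FC of RET was 0.39 ± 0.11 (SE; adjusted p = 0.00917). It was 0.30 (adjusted p = 0.0567) without ABCC1 replicate 1 of the second experiment. Across the 12 libraries of the second and the third experiments, centered within each experiment, RET and the background level had a correlation of r = −0.857. These points share a library kit and differ in depth. They include ABCC1 replicate 1 of the second experiment, which has the lowest background and the highest RET of that experiment, and r was not computed without it. Subtracting the background changed the log2 ratio of the means little, to 0.51 in the second and 0.30 in the third experiment. A fit with the background level as a covariate gave 0.0070 (adjusted p = 0.998) in the second experiment, −0.23 (adjusted p = 0.868) in the third, the opposite direction, and 0.036 (adjusted p = 1.0) for the common effect. With at least 10 counts in every library the common log2FC was 0.21 (adjusted p = 0.0356).

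GFRA3, the artemin co-receptor, fell in the first and the third experiments and in the common effect. Its Puro values were 14.7, 13 and 13.1 CPM in the first experiment and its ABCC1 values 10.6, 9.48 and 10.9 CPM, a log2FC of −0.39 ± 0.08 (adjusted p = 0.0031, edgeR). The Puro libraries of the second experiment had 8.0, 9.33 and 7.37 CPM and the ABCC1 libraries 6.80, 6.23 and 5.19 CPM, and the log2FC of −0.44 ± 0.25 was not called (adjusted p = 0.300). In the third experiment the values were 14, 19.4 and 13.6 CPM against 7.43, 9.62 and 10.2 CPM. In each experiment, every ABCC1 library lay below every Puro library. The third log2FC was −0.79 ± 0.20 (adjusted p = 0.0125), a 1.73-fold lower level. It was −0.59 (adjusted p = 0.102) without Puro replicate 2 and −0.61 (adjusted p = 0.065) without ABCC1 replicate 1. The common log2FC was −0.48 ± 0.11 (adjusted p = 9.45e-04). GFRA3 had the weakest correlation with background of the 9 genes, r = 0.275. With background as a covariate the log2FC was −0.70 (adjusted p = 0.780) in the second experiment, −1.44 (adjusted p = 0.0227) in the third and −0.81 (adjusted p = 1.96e-04) in the common effect. With the background subtracted the log2 ratios were −0.37 and −0.93 in the repeats.

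GFRA2, the neurturin co-receptor, fell in the first experiment, from 192, 177 and 180 CPM to 154, 147 and 169 CPM. Its log2FC was −0.23 ± 0.06 (adjusted p = 0.00882), and 0.051 was the adjusted p without Puro replicate 1. Its values in the second experiment were 50.5, 44.1 and 48.4 CPM in Puro and 61.1, 41.7 and 47.5 CPM in ABCC1, and in the third 54.2, 82.4 and 60.04 against 64.1, 85.4 and 79.1 CPM. The groups overlapped in both, and with the background subtracted the log2 ratios were 0.12 and 0.29. The common log2FC was 0.09 ± 0.10 (adjusted p = 0.815), and it turned to −0.00528 with RLE size factors to −0.10 with at least 10 counts in every library and to −0.21 with background as a covariate, so no direction is given.

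GFRA1, the co-receptor for GDNF, had 5.93, 6.65 and 5.77 CPM in Puro and 4.33, 4.37 and 4.67 CPM in ABCC1 in the first experiment, and it fell by 0.45 ± 0.09 on the log2 scale (adjusted p = 0.00342). Its values in the second experiment were 9.20, 7.09 and 8.81 against 6.00, 7.70 and 7.61 CPM, and in the third 26.7, 17.1 and 24.4 against 23.8, 16.1 and 17.8 CPM. The groups overlapped in both repeats. The common log2FC of −0.24 ± 0.11 missed the threshold (adjusted p = 0.149), and was called at −0.34 with RLE size factors (adjusted p = 0.03). With background as a covariate it turned to 0.072 (adjusted p = 1.0). After subtraction of the background 0.278 CPM per kilobase remained in Puro and 0.422 in ABCC1 in the second experiment, and 0.741 and 0.720 in the third.

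**Figure D3:**
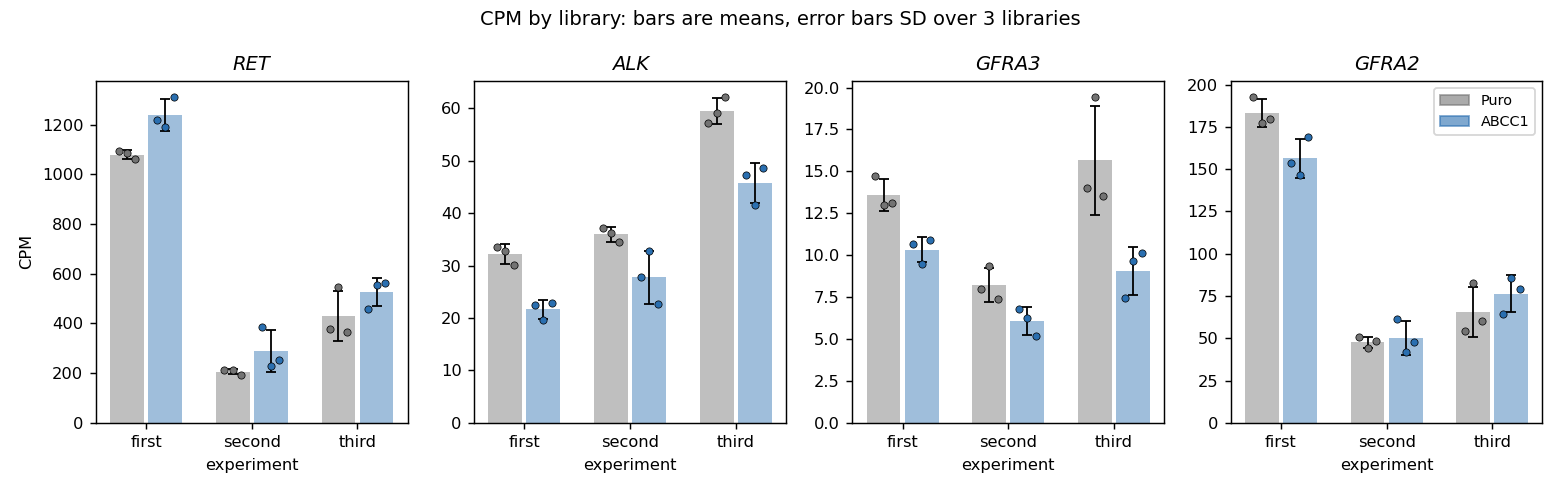
CPM of RET, ALK, GFRA3 and GFRA2 in the Puro (gray) and ABCC1 (blue) libraries of each experiment. Bars are means, error bars SD over 3 libraries and points single libraries. ALK and GFRA3 in ABCC1 lie below every Puro library of their experiment, whereas the RET and GFRA2 points of the third experiment overlap.

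ALK, the kinase most often mutated in neuroblastoma, was lower in ABCC1-overexpressing cells in the first experiment and in the common effect. In the first experiment it measured 33.6, 32.9 and 30.1 CPM in Puro and 22.6, 19.6 and 22.9 CPM in ABCC1. The log2FC was −0.56 ± 0.07 (adjusted p = 1.62e-04, edgeR), a 1.48-fold lower level. In the second experiment the Puro libraries had 37.3, 36.3 and 34.4 CPM and the ABCC1 libraries 27.8, 32.8 and 22.7 CPM. In the third they had 57.2, 59.2 and 62.1 CPM and 47.3, 41.5 and 48.6 CPM. No ABCC1 library of any experiment reached the lowest Puro library of its experiment. Yet the log2FC of −0.38 ± 0.16 was called in neither repeat (adjusted p = 0.181 and 0.222), and each had a fold of 1.30. Without ABCC1 replicate 3 the log2FC of the second experiment was −0.22 (adjusted p = 0.486). The common log2FC was −0.37 ± 0.09 (adjusted p = 0.00116) and was called in 23 of 24 alternatives of the common fit. The exception was background as a covariate, with −0.39 (adjusted p = 0.0574). After subtraction of the background the log2 ratios were −0.32 and −0.38 in the repeats.

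In level, RET exceeded ALK in every group, and the ratio of the means per kilobase was larger in ABCC1 cells. It was 59.0 against 34.7 in Puro in the first experiment, 10.8 against 5.92 in the second and 11.9 against 7.47 in the third. These ratios rest on the same values as the 2 log2FC above and are no further evidence.

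LTK, the close relative of ALK, rose in the first experiment, at very low counts. It had 10, 7 and 6 counts in Puro and 27, 15 and 27 in ABCC1, or 0.23, 0.257 and 0.19 CPM against 0.477, 0.465 and 0.466 CPM. The log2FC was 1.05 ± 0.28 (adjusted p = 0.0121), and the call was lost with DESeq2 (adjusted p = 0.083) and without Puro replicate 3 (adjusted p = 0.0534). In the repeats the means were lower with ABCC1, with values of 4.24, 4.32 and 5.06 against 3.44, 3.53 and 3.81 CPM in the second experiment and 10.2, 14 and 12.2 against 10.9, 9.54 and 9.08 CPM in the third. The groups did not overlap in the second experiment, but in the third ABCC1 replicate 1 lay above Puro replicate 1. Their log2FC of −0.34 ± 0.33 and −0.30 ± 0.21 were not called (adjusted p = 0.562 and 0.523). Without Puro replicate 2 the third was −0.18 (adjusted p = 0.748). With the background subtracted, the second came to 0.0022 and the third to −0.27. LTK had the smallest unadjusted p of the 9 genes for a difference between experiments, 0.00397, which became 0.18 after adjustment (edgeR).

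The neurotrophin receptor genes were lower with ABCC1 in each experiment by their means. NGFR, the low-affinity receptor, had 8.09, 7.20 and 7.61 CPM in Puro and 5.96, 5.70 and 6.10 CPM in ABCC1 in the first experiment, a log2FC of −0.37 ± 0.08 (adjusted p = 0.00537, edgeR). It had 7.38, 5.15 and 4.77 against 3.67, 4.63 and 3.84 CPM in the second experiment and in the third 11.7, 11.5 and 10.4 against 6.49, 8.33 and 8.25 CPM. The groups did not overlap in any experiment. The log2FC of −0.51 ± 0.31 and −0.55 ± 0.22 were not called in the repeats (adjusted p = 0.334 and 0.192). The second was −0.27 (adjusted p = 0.766) without Puro replicate 1, −0.32 (adjusted p = 0.954) with background as a covariate and −0.28 with it subtracted. The third was −0.91 (adjusted p = 0.416) with the covariate and −0.87 with the background subtracted. The common log2FC was −0.41 ± 0.12 (adjusted p = 0.0147), and the call was lost in turn without Puro replicate 1 of the first experiment (adjusted p = 0.0512), Puro replicate 1 of the second (0.06) or ABCC1 replicate 1 of the third (just above the limit), and with background as a covariate (−0.51, adjusted p = 0.108).

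NTRK2, the BDNF receptor, had 6.94, 8.30 and 7.58 CPM in Puro and 5.23, 6.04 and 5.74 CPM in ABCC1 in the first experiment, where the background was 0.303% of its level. It fell by 0.42 ± 0.10 on the log2 scale (adjusted p = 0.0058). The second experiment gave 11.2, 10.3 and 11.6 against 4.74, 9.16 and 9.13 CPM and in the third 31.7, 23.9 and 25 against 25.5, 21 and 17.5 CPM. The lowest value of the second experiment was that of ABCC1 replicate 1. The log2FC of −0.52 ± 0.24 and −0.33 ± 0.17 were not called (adjusted p = 0.214 and 0.326). The second was −0.26 (adjusted p = 0.606) without that library, and the third −0.17 (adjusted p = 0.857) without Puro replicate 1 and −0.20 (adjusted p = 0.790) without ABCC1 replicate 3. The common log2FC was −0.36 ± 0.11 (adjusted p = 0.0123), −0.28 (adjusted p = 0.0436) without ABCC1 replicate 1 of the second experiment and −0.31 (adjusted p = 0.0555) without Puro replicate 1 of the third experiment. NTRK2 followed the background across the 12 libraries of the repeats, with r = 0.927. That value includes ABCC1 replicate 1 of the second experiment and was not computed without it. With background as a covariate the log2FC turned to 0.08 and 0.15 in the repeats. After subtraction of the background 0.0775 CPM per kilobase remained in Puro and 0.152 in ABCC1 in the second experiment, and 0.0106 and 0.0217 in the third, too little for a ratio. With the covariate the log2FC was −0.025 (adjusted p = 1.0) in the common effect.

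NTRK3, the neurotrophin-3 receptor, was scarce in the first experiment, with 0.69, 0.624 and 0.793 CPM in Puro and 0.513, 0.341 and 0.517 CPM in ABCC1. The log2FC of −0.57 ± 0.24 was not called (adjusted p = 0.0823). In the second experiment the values were 14.5, 10.4 and 7.51 CPM in Puro and 2.06, 7.79 and 5.97 CPM in ABCC1, again with the lowest value in ABCC1 replicate 1, and the ranges overlapped. There the log2FC was −1.04 ± 0.33 (adjusted p = 0.0903), and −0.65 (adjusted p = 0.19) without that library. In the third experiment the values were 29.8, 27.4 and 26.7 against 21.7, 22.0 and 23.3 CPM, a log2FC of −0.32 ± 0.16 (adjusted p = 0.325). The common log2FC was −0.58 ± 0.17 (adjusted p = 0.0119) and −0.45 (adjusted p = 0.0111) without ABCC1 replicate 1 of the second experiment. NTRK3 had r = 0.908 with the background over libraries that include ABCC1 replicate 1 of the second experiment, and r was not computed without it. With background as a covariate the log2FC was −0.0095 (adjusted p = 0.999) in the second experiment, −0.38 (adjusted p = 0.721) in the third and −0.26 (adjusted p = 0.696) in the common effect. With the background subtracted the log2 ratio of the means was −1.14 in the second and −0.30 in the third experiment.

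**Figure D4:**
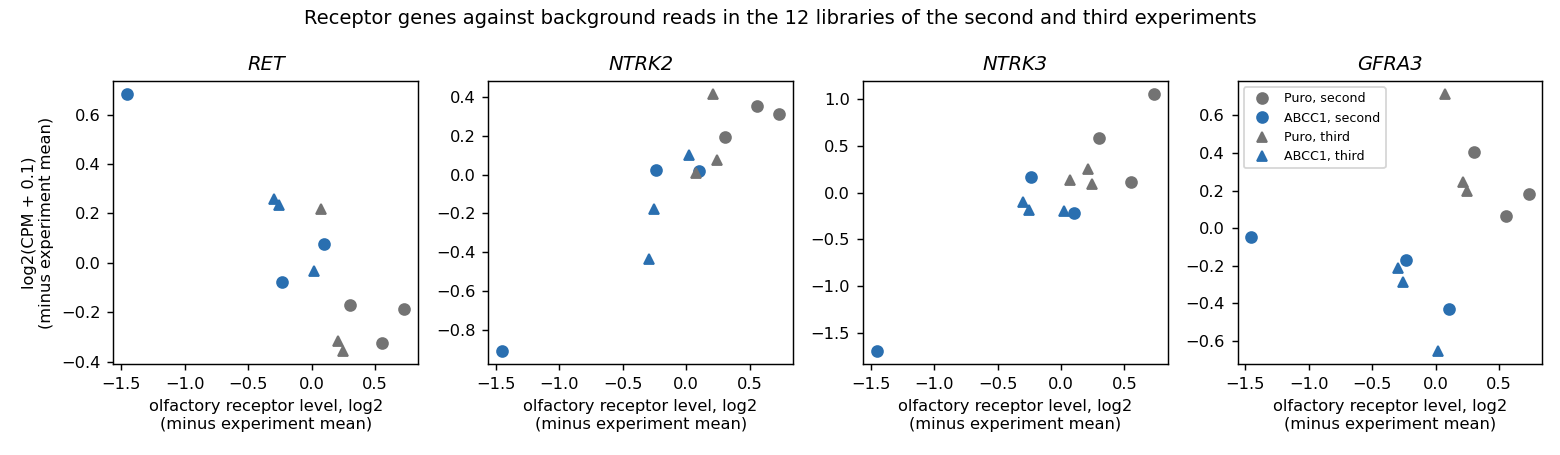
Log2(CPM + 0.1) of RET, NTRK2, NTRK3 and GFRA3 against the log2 olfactory receptor level in the 12 libraries of the second (circles) and the third (triangles) experiments, each minus its experiment mean. Gray is Puro and blue is ABCC1. RET falls and NTRK2 and NTRK3 climb along the axis, and the point at the far left is ABCC1 replicate 1 of the second experiment.

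The genes around these receptors were described by 4 lists. Among 12 ligand genes, GDNF, the GFRA1 ligand, fell in the first experiment from 28.5 ± 1.05 to 14.5 ± 0.541 CPM (SD, n = 3), a log2FC of −0.97 (adjusted p = 8.42e-07, edgeR). BDNF, the NTRK2 ligand, rose from 18.1 ± 0.957 to 21 ± 0.231 CPM, a log2FC of 0.21 (adjusted p = 0.021), and had 0.24 and 0.43 in the repeats (adjusted p = 0.399 and 0.207). The other 6 ligand genes tested there were not called, so 2 of 8 were called against 37.6% of all genes. GDNF had log2FC of −0.55 and −0.56 in the repeats that were not called (adjusted p = 0.243 and 0.0888). In the second experiment 1 of 10 ligand genes was called, against 1.7% of all genes. This was PTN, encoding the heparin-binding growth factor pleiotrophin, which was lower at 0.66 ± 0.0992 against 2.75 ± 0.785 CPM (adjusted p = 0.0423). It rested on 12 to 92 counts per library. In ABCC1 its level was 0.385 CPM per kilobase against a background of 0.300, and in Puro 1.61 against 0.573. PTN had a log2FC of −0.02 in the first experiment (adjusted p = 0.968) and −0.39 in the third (adjusted p = 0.720). In the third 0 of 12 were called, against 2.8%. ALKAL1 and ALKAL2 had too few counts for a test in the first experiment, at 0.0305 and 0.0489 CPM in Puro.

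Of 17 co-receptor and modulator genes tested in the first experiment, 10 fell and 1 rose, where 19.7% of all genes were lower and 17.9% higher, and their median log2FC was −0.24 against 0.0074 over all genes. The 3 largest changes were in PTPRZ1, encoding a pleiotrophin-binding phosphatase, and in SORCS3 and SORCS2, which encode sortilin-family receptors. PTPRZ1 went from 0.608 ± 0.178 CPM to 0.0118 ± 0.0204 CPM (adjusted p = 8.56e-05), on 0 to 30 counts per library. SORCS3 went from 0.762 ± 0.119 to 0.0746 ± 0.0467 CPM (adjusted p = 8.00e-05). In the repeats PTPRZ1 had log2FC of −0.91 and −0.31 (adjusted p = 0.316 and 0.677) and SORCS3 −1.32 and −0.22 (adjusted p = 0.123 and 0.643). PTPRZ1 lay below the background in both, with 0.261 CPM per kilobase in Puro of the second experiment and 0.553 in the third. SORCS3 was at 0.993 and 2.46 there, where the background was 0.573 and 1.57. The background was also lower in ABCC1 than in Puro. SORCS2, which can partner with NGFR, fell from 7.49 ± 0.488 to 2.62 ± 0.314 CPM, a log2FC of −1.54 (adjusted p = 2.33e-06). It also fell in the third experiment, by 0.60 on the log2 scale (adjusted p = 0.0262), and was at −0.77 in the second (adjusted p = 0.0624). SORCS2 was the only gene of 19 called in the third experiment and 0 of 19 were called in the second, near the shares of all genes, 2.8% and 1.7%. With RLE size factors 0 were called in the third. With at least 10 counts in every library 0 rose and 8 fell of 15 in the first, and 1 was called in the second.

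The adaptor and negative regulator genes, which carry the signal from the receptors or end it, had 5 of 23 higher and 6 lower in the first experiment, near the shares of all genes, 17.9% and 19.7%. SOS2, a RAS exchange factor, fell by 0.45 on the log2 scale (adjusted p = 2.33e-04), and CBLB, a ubiquitin ligase, fell by 0.33 (adjusted p = 9.46e-05). In the repeats SOS2 had 0.16 and −0.18 (adjusted p = 0.580 and 0.642) and CBLB 0.08 and −0.21 (adjusted p = 0.792 and 0.601). FRS3, a docking adaptor, rose with a log2FC of 0.37 (adjusted p = 0.0154) and had 0.22 and 0.51 in the repeats (adjusted p = 0.543 and 0.110). Its relative FRS2 rose in all 3 experiments, with a log2FC of 0.21 in the first (adjusted p = 0.0047). With ABCC1 it was at 66.6 ± 2.65 against 41.3 ± 4.83 CPM in the second experiment (log2FC 0.69, adjusted p = 0.0296) and 46.5 ± 3.27 against 31.7 ± 5.28 CPM in the third (log2FC 0.55, adjusted p = 0.0392). SH2B1, an adaptor of TRK and RET, rose in the first with a log2FC of 0.21 (adjusted p = 0.0135) and in the third with 0.72 (adjusted p = 0.00484), and had 0.54 in the second (adjusted p = 0.109). FRS2 and SH2B1 were the only calls in the repeats, 1 of 25 genes in the second and 2 of 25 in the third, all higher, against 1.25% and 2.03% of all genes.

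Among genes known to respond to ERK signaling, more rose than fell in each experiment. In the first experiment 14 of 22 rose and 4 fell, where 17.9% of all genes rose and 19.7% fell, with a median log2FC of 0.38 against 0.0074 over all genes. In the second 3 rose and 0 fell, against 1.25% and 0.458% of all genes, with a median of 0.39 against −0.19. In the third 7 rose and 0 fell, against 2.03% and 0.767%, with a median of 0.31 against −0.091. The immediate early gene EGR1 rose from 164 ± 27.6 to 319 ± 40.9 CPM in the first experiment, from 33.5 ± 11.7 to 92.9 ± 19.2 in the second and from 39.4 ± 9.89 to 195 ± 15.0 CPM in the third. Its log2FC was 0.96, 1.47 and 2.31 (adjusted p = 4.76e-04, 0.00137 and 8.80e-17). SPRY1, a feedback inhibitor of receptor kinases, rose in the first experiment from 4.28 ± 0.281 to 9.16 ± 0.211 CPM (adjusted p = 4.41e-06), and had log2FC of 0.86 and 0.40 in the repeats (adjusted p = 0.0904 and 0.467). EGR3 rose in the first experiment with a log2FC of 1.04 (adjusted p = 0.00457), and had the opposite sign in the repeats, −0.75 and −0.28 (adjusted p = 0.264 and 0.622). In the second experiment EGR3 lay close to the background, at 0.90 CPM per kilobase in Puro and 0.54 in ABCC1 against 0.573 and 0.300. In the third it was at 2.13 and 1.75 against a background of 1.57 and 1.23. VGF, a neurotrophin-induced secreted protein gene, rose in both repeats, from 146 ± 8.82 to 236 ± 36.8 CPM (adjusted p = 0.0477) and from 193 ± 47.0 to 446 ± 72.5 CPM (adjusted p = 3.08e-05), and had a log2FC of 0.16 in the first experiment (adjusted p = 0.440). SPRED1, another inhibitor of RAS signaling, rose in each experiment, with log2FC of 0.33, 0.72 and 0.59 (adjusted p = 2.16e-04, 0.0285 and 0.0244). The ERK phosphatase gene DUSP5 rose in the first and the third with 0.62 and 0.89 (adjusted p = 4.04e-05 and 5.93e-04), and had 0.26 in the second (adjusted p = 0.496). In the second experiment 6 of the list were higher with RLE size factors and 2 with at least 10 counts in every library.

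**Figure D5:**
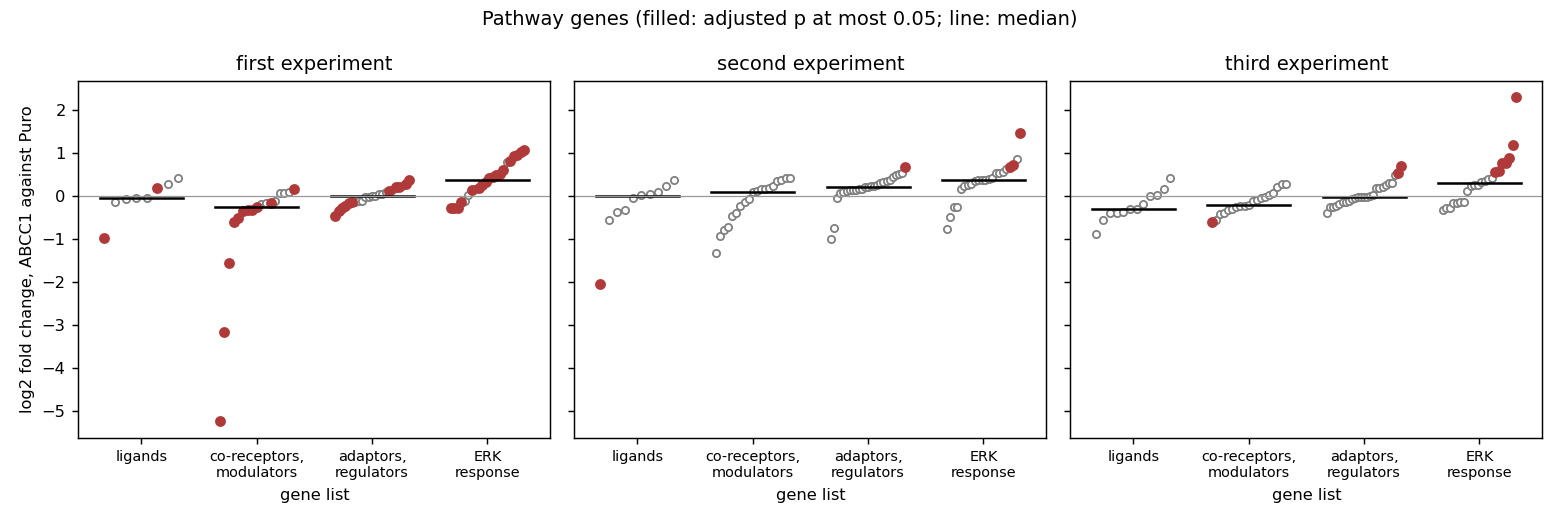
Log2FC of ABCC1 against Puro for each tested gene of the 4 lists in each experiment, sorted within a list. Filled points have an adjusted p of at most 0.05 and black lines are medians. The ERK response list has medians of 0.38, 0.39 and 0.31, and PTPRZ1 is the lowest point of the first panel, on 0 to 30 counts per library.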

How the data were processed

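Messenger or total RNA of 18 libraries was sequenced, 3 per line in each of 3 experiments. The authors aligned the reads with STAR 2.7.3a to GRCh37 with the vector sequences added, counted read pairs on exons with featureCounts (Subread 2.0.0) without regard to strand, and deposited these raw counts per gene without normalization. According to the methods, the first experiment used a poly(A) kit (TruSeq) and the repeats a total RNA kit (SMARTer Pico), although the labels also name the latter for the first.

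For each experiment on its own, counts were analysed with edgeR 4.0.16 (R 4.3.3), using filterByExpr at a minimum count of 10, TMM normalization, robust quasi-likelihood test, and Benjamini-Hochberg adjustment over all Ensembl genes tested. The 92 spike-in and 6 vector rows were fitted but not adjusted over. Standard errors came from the F statistic of each test. A joint fit of 18 libraries gave the common effect and its difference between experiments. Tests are two-sided, and called means an adjusted p of at most 0.05. Exact permutation tests used log2(CPM + 0.1). Genes named from the lists were, per experiment, up to 3 with the largest absolute log2FC among those called. The genes, the lists (113 of 114 symbols matched) and the rule were chosen with earlier results of these data known. Replicates were checked for duplication, and the labels do not say that they are separate cultures. The lowest chi-square per degree of freedom was 1.489, between ABCC1 replicates 1 and 2 of the first experiment. Replicate 3 of that group gave 21.5 and 16.1 against them. The common coefficient of variation fitted between libraries was 5.67% in the first experiment, 35.3% in the second and 19.7% in the third. The numbers of genes called therefore rest on unequal spreads. The methods describe weekly platings of each line, kept until 3 weeks had been collected, but do not tie a library to a week. P-values measure the spread between these libraries, all from 1 line per group and experiment. Depth was 27433393 to 57937653 assigned pairs in the first experiment, 19577853 to 30996228 in the second and 8866994 to 13332413 in the third. At an equal CPM, counting error is therefore largest in the third. LTK and NTRK3 instead had their fewest counts in the first, 6 to 27 and 11 to 30 per library. Alternatives were RLE size factors, no filter, at least 10 counts in every library, DESeq2 1.42.0, each experiment taken from the fit of all 18 libraries, the replicate number as a block, the background level as a covariate and each library left out. Subtraction of the background, its level as a covariate in the joint fit, its level over all matched olfactory receptor genes, and the list counts under other scalings, were chosen after seeing the data. The scripts were tested on simulated data.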

Additional observations from a re-analysis of the deposited data

How the results depend on the processing

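The number of the 9 receptor genes called in the first experiment went from 8 to 0 in the fit of all 18 libraries, where spread, scaling and genes tested changed together and all 9 estimates kept their direction (RET 0.30, GFRA2 −0.12). In the second it went from 0 to 1 with no filter (NTRK3, adjusted p = 0.0151), with DESeq2 (RET, adjusted p = 0.0387) and in the fit of all 18 libraries (NTRK3, adjusted p = 0.00749). With libraries left out in turn, the count in the third experiment ranged from 0 to 1. GFRA1 joined the common calls with RLE size factors (adjusted p = 0.03), DESeq2 (0.0217) and at least 10 counts in every library (0.00543). In the common effect the count went from 6 to 1 with the background covariate. GFRA3 was called there in all 24 alternatives, and ALK and NTRK3 in 23, the exception being that covariate. The median of all genes shifted by over 0.1 on the log2 scale in the first experiment in the fit of all 18 libraries (0.10), in the second with RLE size factors (0.11), DESeq2 (0.11), the covariate (0.12) and at least 10 counts (−0.12), and in the common effect with at least 10 counts (−0.18) and the covariate (0.10).

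Directions turned as follows. With the background covariate, the second experiment gave 0.080 for NTRK2, 0.060 for GFRA1 and −0.20 for GFRA2, and the third −0.23 for RET, 0.15 for NTRK2, 0.45 for GFRA1 and −0.34 for GFRA2, and the common effect 0.072 for GFRA1 and −0.21 for GFRA2. GFRA2 was also −0.056 in the second experiment with at least 10 counts, −0.086 to 0.20 with 1 library left out, the lowest being without ABCC1 replicate 1, and −0.00528, −0.099 and −0.0053 in the common effect with RLE size factors, at least 10 counts and DESeq2. With the background subtracted, LTK in the second experiment was 0.0022, and what remained of NTRK2 in both repeats and of GFRA1 in the second was higher in ABCC1 than in Puro, with no ratio given. None of these values was called, and the cause was not tested. A replicate block left 8, 0 and 1 genes called in the 3 experiments, 6 in the common effect and 0 for the difference between experiments, as without it. Same-numbered libraries had correlations of −0.142 to 0.091 and the labels do not pair them. LTK and NTRK3 had the fewest counts of the 9 genes in the first experiment, and the 5 lowest genes lay close to the background in the repeats.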

Other observations

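The genes most like each receptor gene across the 18 libraries, after each experiment's mean was removed from log2(CPM + 0.1), are given as a description over 16200 genes, since all share libraries, depth and background. For RET they were NF2 (r = 0.972) and SNRNP70 (0.959), for ALK DIRAS2 (0.937) and CHST15 (0.914), and for LTK COL4A6 (0.878) and CACNG8 (0.875). For NTRK2 they were PTPRT (0.938) and KIRREL3 (0.937), for NTRK3 DDX60L (0.959) and ZYG11A (0.951), and for NGFR MOK (0.862) and PLEKHH1 (0.856). For GFRA1 they were AGBL4 (0.895) and TMEFF2 (0.885), for GFRA2 PPP1R12C (0.864) and TP53INP2 (0.856), and for GFRA3 TOX2 (0.909) and PPME1 (0.907). Among the receptor genes themselves, NGFR and GFRA3 had r = 0.81, ALK and NGFR 0.777 and RET and GFRA2 0.663, whereas RET and NTRK2 had r = −0.892.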
